A study of Drosophila melanogaster with 8 samples.

Results

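Short transcripts, those of 300 nucleotides (nt) or less, were examined in RNA immunoprecipitated with the RNA-binding protein HOW(S) from testes of Drosophila melanogaster. Members had an annotated length of at most 300 nt and a mean of at least 10 estimated reads over the 4 input libraries, and 52 of 30069 transcripts met both conditions. They were set against the 20031 transcripts longer than 300 nt and under 10000 nt that passed the same read minimum, called longer transcripts here. Testes of UAS-HOW-S-HA/nanos-GAL4 males, in which the HA-tagged short isoform of HOW is driven by nanos-GAL4, gave 3 pairs of an anti-HA pull-down and the input lysate it was taken from. Testes of nanos-GAL4/nanos-GAL4 males, which carry the driver without the tagged protein, gave 1 such pair, so the control has no replicate. All flies therefore carried the driver, which is active in germline stem cells and early spermatogonia, whereas the lysates were of whole organs pooled from many young males. The labels give the tissue as testes, while the study's methods describe dissection of the male reproductive system, so RNA of neighbouring organs cannot be told apart from that of the testis here. The pull-downs held 20.5 M to 24.0 M estimated reads, and there were 9.13 M in HOW(S)-HA input 1 and 19.9 M to 20.8 M in the other inputs. The tissue label was not checked against marker genes, since the annotation used here pairs only 23 of the files' transcript identifiers with a gene, none of them a member.

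HOW is the fly member of the STAR family of RNA-binding proteins, related to vertebrate Quaking, and its short isoform is mainly cytoplasmic. In RNA immunoprecipitation, beads carrying an antibody against the tag hold back the protein with its RNA, that RNA and the RNA of the whole lysate are both sequenced, and the ratio of pull-down to input is taken as enrichment. A messenger RNA of this length can code only for a small protein, and the testis and male reproductive tract are known for many transcripts of this kind. Short RNAs are also hard to quantify, because a sequenced fragment has few places to start in them. Quantification tools correct for this by dividing reads by an effective length, the number of positions at which a fragment could start.

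The members ran from 144 to 300 nt, with a median of 254.5 nt, and 9 of them had 200 nt or less, 16 had more than 200 and up to 250 nt and 27 had more than 250 nt. Their effective length lay between 5.91 and 52.3 nt, which was 4.10% to 17.4% of the annotated length, with a median of 8.79%. In the longer transcripts, whose median length was 2067 nt, the median was 88.0%. A single read in a transcript therefore stood for very different amounts on the scale of TPM, which counts transcripts relative to a library total of 1000000. For the shortest member, FBtr0086355 of 144 nt, 1 read was worth between 2.90 and 5.94 TPM over the 8 libraries, against between 0.328 and 0.671 TPM at 300 nt and between 0.0098 and 0.0200 TPM at 2000 nt.

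Short transcripts took a smaller share of the reads in each pull-down than in its own input. They held 1.26%, 1.13% and 1.82% of estimated reads in HOW(S)-HA pull-downs 1, 2 and 3, against 3.86%, 2.45% and 2.54% in inputs 1, 2 and 3. In nanos-GAL4 testes they held 0.664% of reads in the pull-down and 1.92% in the input. The summed share was thus 3.06-fold, 2.16-fold and 1.39-fold lower in the pull-down in HOW(S)-HA pairs 1, 2 and 3, and 2.89-fold lower in the nanos-GAL4 pair. The shares of the pull-downs and of the inputs did not overlap. The 95% Wilson interval, which covers counting error only, was 0.661% to 0.668% in the library with the lowest share and 3.85% to 3.88% in the one with the highest. A few members carried most of these reads, since the top 3 had 56.1% and the top 10 had 90.2% of the members' input reads. Without the top 10 the summed share was 3.84-fold, 2.11-fold and 1.39-fold lower in the HOW(S)-HA pull-downs and 3.20-fold lower in the nanos-GAL4 pull-down.

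Measured in TPM, the same 52 transcripts made up a large part of every library. They held 49.4%, 46.4% and 57.5% of all TPM in HOW(S)-HA pull-downs 1, 2 and 3 and 68.2%, 60.6% and 62.3% in the inputs, and 36.2% in the nanos-GAL4 pull-down and 57.1% in its input. All 10 of the highest TPM values belonged to short transcripts in every library except the nanos-GAL4 input, where 9 did. Among the 10 transcripts with the most reads, between 0 and 2 were short. When reads were divided by the full annotated length in place of the effective length, the share was 8.71%, 7.75% and 11.6% in the HOW(S)-HA pull-downs and 19.1%, 13.5% and 14.2% in their inputs, and 4.92% in the nanos-GAL4 pull-down and 11.4% in its input. Within each pair the pull-down lay below its input on all of these scales, while the size of the share depended on the length used. Between pairs, pull-downs and inputs overlapped once reads were divided by length. HOW(S)-HA pull-down 3 lay above the nanos-GAL4 input, at 57.5% against 57.1% of TPM and 11.6% against 11.4% by full length.

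**Figure D1:**
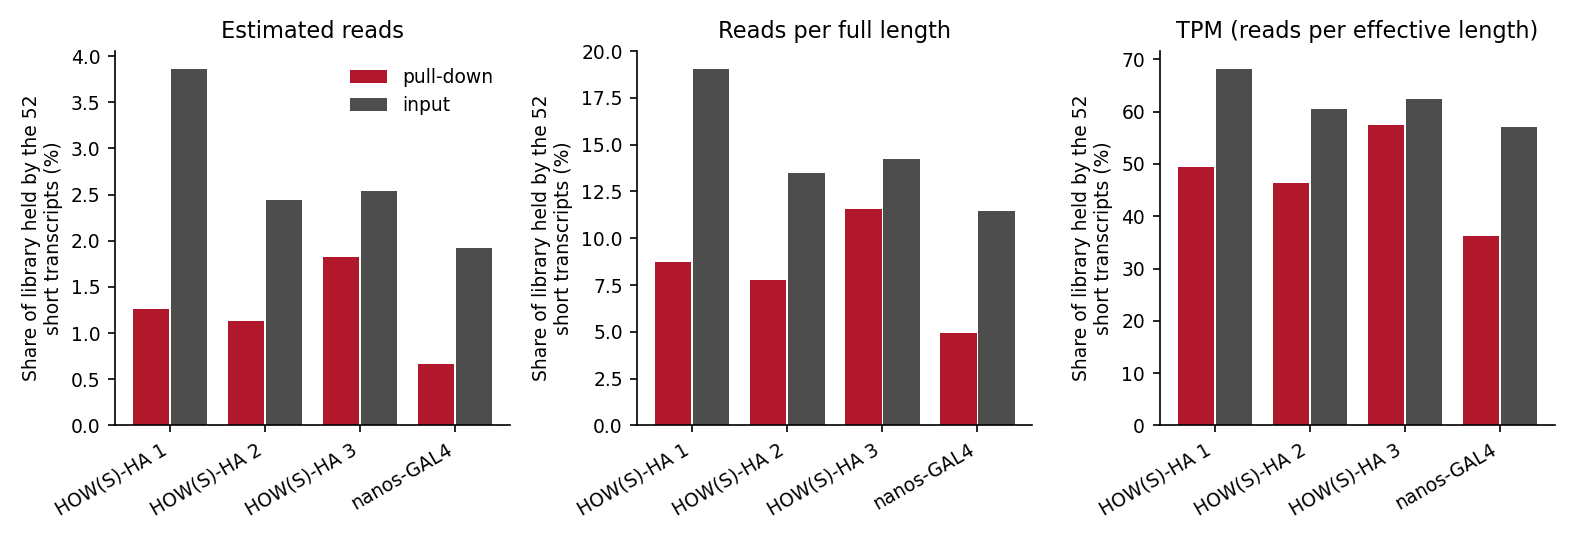
Share held by the 52 short transcripts in each of the 8 libraries, as a percentage of estimated reads, of reads divided by full length and of TPM, with the pull-down left of its input in each pair. In reads every pull-down is at or below 1.82% and every input is at or above 1.92%, and in TPM the shares run between 36.2% and 68.2%.

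In the inputs, the members' levels spanned several orders of magnitude, with means over the 4 inputs between 10.25 and 132964 estimated reads and a median of 370. Of the 52, 9 had 10000 reads or more, 11 others had 1000 or more, 15 had between 100 and 1000 and 17 had fewer than 100. Among the HOW(S)-HA inputs the median coefficient of variation was 20.2% for short transcripts and 21.5% for longer ones, in reads scaled to a library total of 1000000 (RPM). Among the HOW(S)-HA pull-downs it was 41.3% for short transcripts and 21.4% for the longer ones. The classes differ in depth, since the longer transcripts had a median of 169 input reads. Single members varied between 2.35% and 71.5% among the HOW(S)-HA inputs, with 42.5% for FBtr0075116, the most abundant. Across the 52 members, the log2 levels of any 2 inputs had a Pearson correlation between 0.977 and 0.997, which describes members that share their library and is no test. Estimated reads were whole numbers in all 8 libraries for 36 of the 52 members, or 69.2%, against 24.8% of longer transcripts and 24.7% of all transcripts passing the read minimum, so most members shared no reads fractionally with another transcript. The 36 did not include FBtr0300315 and FBtr0344808, which have the lowest and the highest fitted fold change among the members below.

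FBtr0075116, of 241 nt, was the most abundant member by reads. It had 5988, 4178 and 5915 RPM in HOW(S)-HA pull-downs 1, 2 and 3 against 13614, 7045 and 6747 in the inputs, and 2622 in the nanos-GAL4 pull-down against 6333 in its input. Every pull-down was thus below its own input, and below every other input too. In TPM the order of the HOW(S)-HA libraries was the opposite, with 209342, 149123 and 154010 TPM in the pull-downs and 205929, 142138 and 132114 TPM in the inputs, while nanos-GAL4 had 120802 TPM in the pull-down and 150463 TPM in the input. TPM are relative to a total of which this one transcript was a large part, and that total was itself shared differently between short and long transcripts in pull-down and input. FBtr0084915, of 195 nt, had 1290, 1157 and 2321 RPM in the HOW(S)-HA pull-downs against 3498, 3592 and 3982 in the inputs, and 765 in the nanos-GAL4 pull-down against 2662 in its input. FBtr0084561, of 243 nt, had 853, 1101 and 1935 RPM in the HOW(S)-HA pull-downs against 5545, 2924 and 3004 in the inputs, and 651 in the nanos-GAL4 pull-down against 2008 in its input. For both, all pull-downs lay below all HOW(S)-HA inputs, and pull-down 3 was the highest of the pull-downs.

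**Figure D2:**
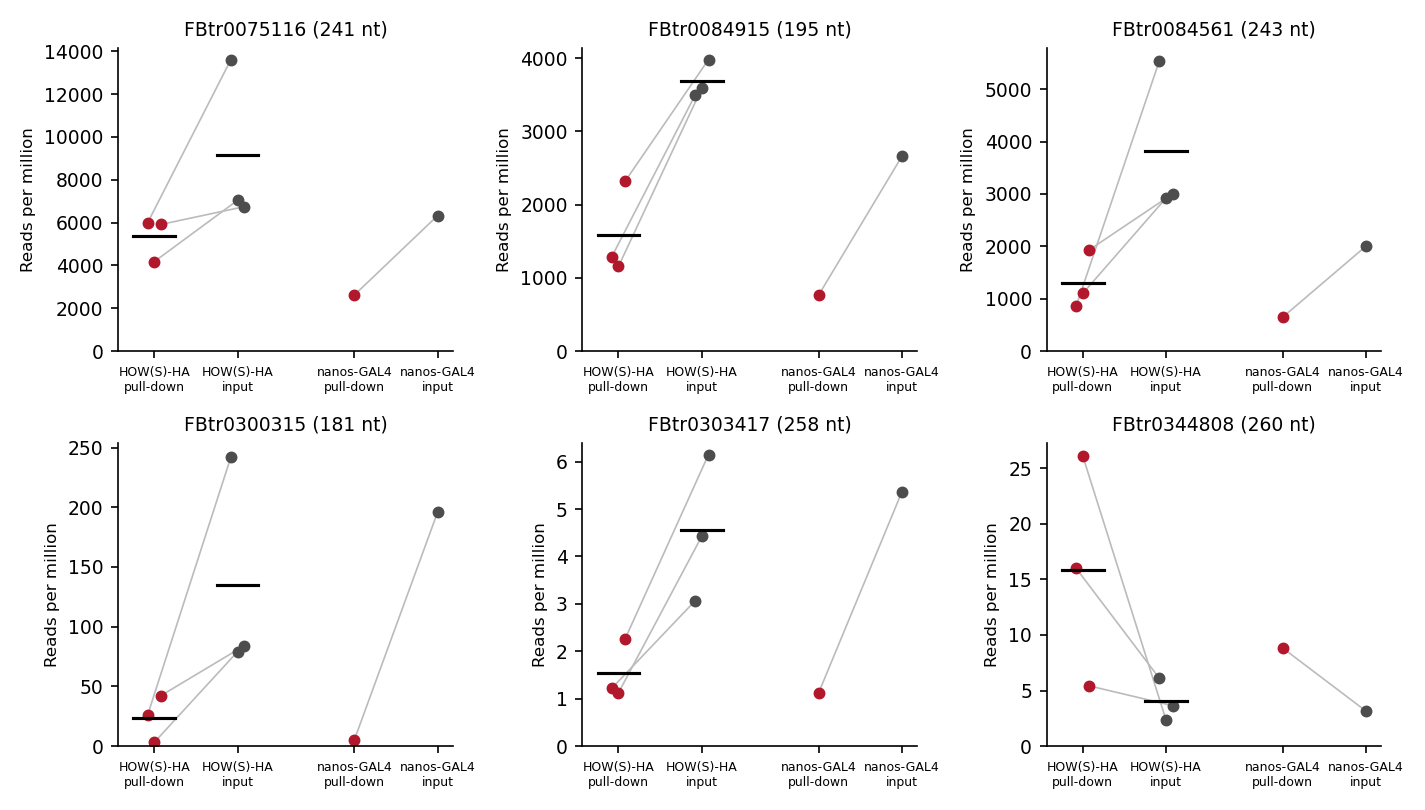
RPM, on linear axes that start at 0, of 6 short transcripts, with pull-down left of input for HOW(S)-HA and for nanos-GAL4 testes; each point is a library, each line joins a pull-down to its own input and the black bars are means of the 3 HOW(S)-HA libraries. Lines run upward to the input in FBtr0075116, with 5988 and 13614 RPM in HOW(S)-HA pair 1, and downward in FBtr0344808, with 16.0 and 6.09 RPM in the same pair.

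The pull-down over input was next compared within each pair, as the log2 ratio of RPM with 1 read added to each count, so that no scaling by effective length enters. The median ratio of short transcripts was -1.71, -1.09 and -0.50 in HOW(S)-HA pairs 1, 2 and 3 and -1.46 in the nanos-GAL4 pair. Longer transcripts had medians of 0.01, -0.06 and -0.12 in the HOW(S)-HA pairs and -0.22 in the nanos-GAL4 pair. The difference between the medians was therefore -1.72, -1.02 and -0.38 in HOW(S)-HA pairs 1, 2 and 3 and -1.24 in the nanos-GAL4 pair, the same direction in all 4 pairs but far from the same size. The nanos-GAL4 value lay within the range of the HOW(S)-HA values. Against transcripts of more than 300 and up to 1000 nt alone, the difference was smaller, at -1.19, -0.61 and -0.16 in HOW(S)-HA pairs 1, 2 and 3 and -0.81 in the nanos-GAL4 pair.

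Most members lay below 0 in each pair. In HOW(S)-HA pairs 1, 2 and 3, 50, 47 and 45 of the 52 were below 0, and 50 were in the nanos-GAL4 pair, against 49.6%, 53.3%, 60.1% and 63.8% of longer transcripts in the same order of pairs. A ratio of -1 or less was found for 39, 28 and 3 members in HOW(S)-HA pairs 1, 2 and 3, where 16.9%, 10.7% and 8.23% of all transcripts passing the read minimum had one, and for 41 members in the nanos-GAL4 pair, where 14.3% had one. The share in HOW(S)-HA pair 3, 3 of 52, was thus near the background, and in the other pairs it was well above it. A ratio of 1 or more was found for 1 member in each of HOW(S)-HA pairs 1 and 2 and the nanos-GAL4 pair and for none in HOW(S)-HA pair 3, against backgrounds of 21.9%, 16.3%, 12.5% and 10.7%. Because the read minimum applied to the inputs, transcripts with reads mainly in the pull-downs were left out of members and background alike. Across pairs, 42 of 52 members were below 0 in all 3 HOW(S)-HA pairs, where 29.1% of all transcripts were. All 4 pairs were below 0 for the same number, 42, where 26.6% of all transcripts were, and 1 was above 0 in all 4, where 17.3% were. For 37 members all 3 HOW(S)-HA pull-downs lay below all 3 HOW(S)-HA inputs in RPM, against 19.0% of all transcripts, and for none did they lie above, against 15.5%.

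**Figure D3:**
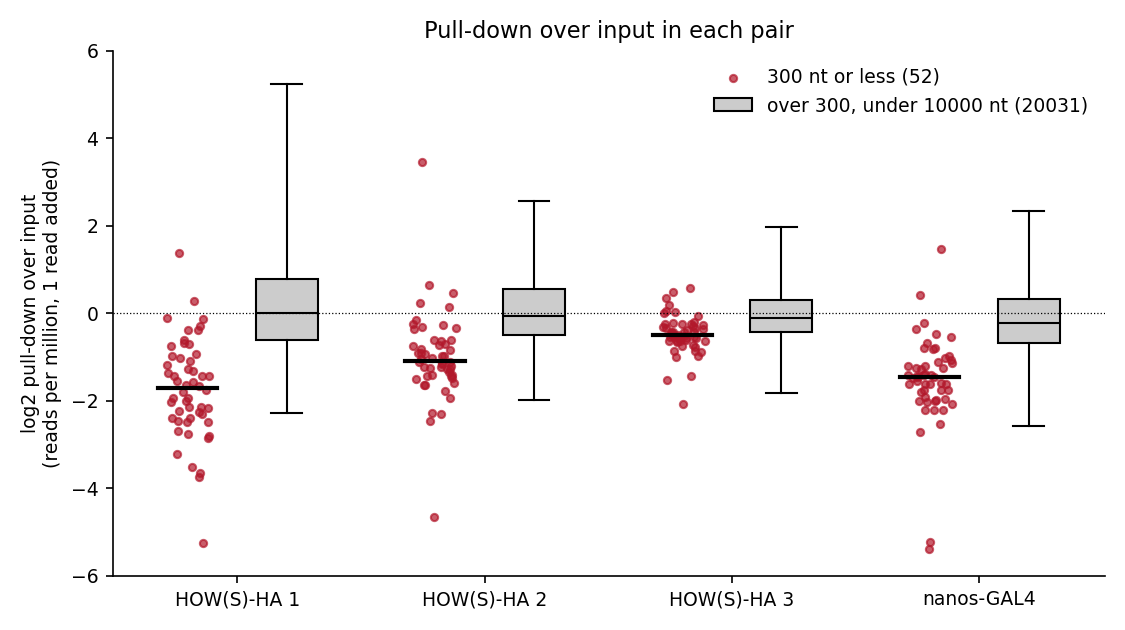
Log2 ratio of pull-down over input RPM in HOW(S)-HA pairs 1 to 3 and in the nanos-GAL4 pair, with each of the 52 short transcripts as a point beside a bar at their median, and the longer transcripts as a box from the lower to the upper quartile with its median and whiskers from the 5th to the 95th percentile. The short medians are -1.71, -1.09, -0.50 and -1.46, and those of the longer transcripts lie between -0.22 and 0.01.

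The size of the difference followed the pair. The ratio in HOW(S)-HA pair 1 was the lowest of the 3 HOW(S)-HA ratios for 40 of 52 members, against 33.6% of all transcripts, and that in pair 3 was the highest for 38 members, against 29.0%. Input 1, the library with the fewest reads, also had the highest share of short reads, and pull-down 3 had the highest share of the pull-downs. The part of depth in this order was not tested. The members' ratios in different pairs were only loosely related, with Pearson correlations between 0.03 and 0.65 over the 52 members, given as a description.

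On the TPM scale all ratios moved upward together. Short transcripts had median log2 TPM ratios of -0.44, -0.27 and -0.09 in HOW(S)-HA pairs 1, 2 and 3 and -0.52 in the nanos-GAL4 pair, against 1.22, 0.79, 0.29 and 0.72 for longer transcripts in the same order of pairs. These medians used transcripts above 0 in both libraries of the pair. When TPM were scaled again without the 52 members, the medians of the longer transcripts came to 0.54, 0.35 and 0.12 in the HOW(S)-HA pairs and 0.15 in the nanos-GAL4 pair. Part of the height of the longer transcripts' TPM ratios thus came with the smaller TPM share of the 52 members in the pull-downs, since TPM have a fixed total.

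The ratio rose with length over the whole range, though not from every bin to the next, and had no step at 300 nt. In HOW(S)-HA pair 1 the median ratio was -2.26 up to 200 nt, -2.05 from there to 250 nt and -1.32 from there to 300 nt. Beyond the limit it was -1.14 in the bin ending at 350 nt, -0.84 in that of 400 to 500 nt, -0.47 in that of 500 to 1000 nt, 0.29 in that of 2000 to 5000 nt and 0.75 above 5000 nt. The nanos-GAL4 pair ran the same way, with -2.01 up to 200 nt, -1.43 to 250 nt, -1.26 to 300 nt, -0.97 to 350 nt and 0.30 above 5000 nt. HOW(S)-HA pair 3 was flatter, between -0.54 and -0.46 in the bins up to 300 nt, -0.39 in the next bin, ending at 350 nt, -0.44 in that ending at 400 nt and 0.23 above 5000 nt. HOW(S)-HA pair 2 had -0.91, -0.68 and -0.78 in the bins ending at 300, 350 and 400 nt. The share of transcripts below 0 in all 4 pairs was 100% of the 9 shortest members, 81.3% of the next bin and 74.1% of members above 250 nt. It then stayed level, at 70.1%, 73.4% and 72.8% in the bins ending at 350, 400 and 500 nt, and fell to 55.8% at 500 to 1000 nt and 7.62% above 5000 nt. Short transcripts were thus one end of a trend that ran over the whole range of lengths in libraries with and without HOW(S)-HA.

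**Figure D4:**
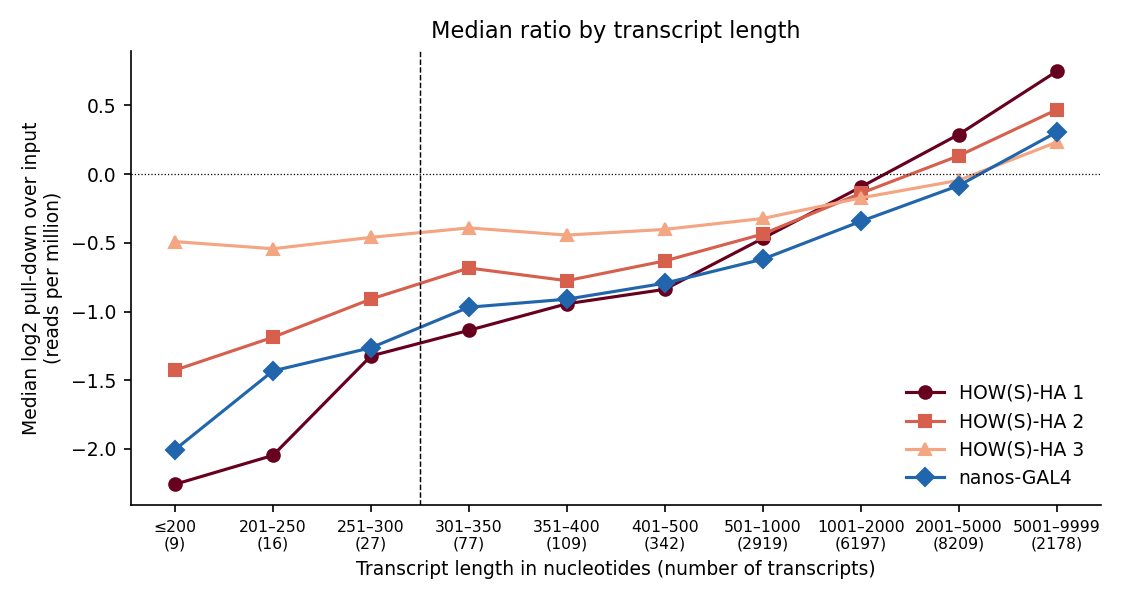
Median log2 ratio of pull-down over input RPM in bins of annotated length, from 200 nt or less to more than 5000 nt, with 1 line for each of the 3 HOW(S)-HA pairs and 1 for the nanos-GAL4 pair. HOW(S)-HA pair 1 runs from -2.26 to 0.75 and the nanos-GAL4 pair from -2.01 to 0.30, with no break at 300 nt.

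Within the members, length and ratio had a Pearson r of 0.37 and a Spearman rho of 0.38 between length and the mean ratio of the HOW(S)-HA pairs over the 52 transcripts, as a description. The abundant members were the most uniform. All 20 members with 1000 input reads or more were below 0 in all 4 pairs, against 43.3% of longer transcripts at that depth. Of the 15 members with 100 or more but under 1000 reads 13 were, against 31%, and of the 17 members with fewer than 100 reads 9 were, against 15%. A ratio rests on few reads in the last class.

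Around the length limit, neighbouring transcripts differed from one another. Just inside it, FBtr0300300 of 300 nt had log2 ratios of -2.03, -1.34 and -0.56 in HOW(S)-HA pairs 1, 2 and 3 and -1.98 in the nanos-GAL4 pair. FBtr0112363 of 298 nt had 0, 40 and 39.95 estimated reads in HOW(S)-HA pull-downs 1, 2 and 3 against 16, 41 and 47 in the inputs, and 0 in the nanos-GAL4 pull-down against 35 in its input, which leaves no read in 1 HOW(S)-HA pull-down and a level near that of the input in another. FBtr0306842 of 296 nt had ratios of -1.79, -0.34 and -0.07 in the HOW(S)-HA pairs and -0.81 in the nanos-GAL4 pair. Just outside the limit, FBtr0086665, with 1 nt more than the limit, had ratios of -0.85, -0.53 and 0.34 in the HOW(S)-HA pairs and -0.91 in the nanos-GAL4 pair, and FBtr0085891, with 3 nt more, had -0.30, 0.15 and -0.49 in the HOW(S)-HA pairs and -1.0 in the nanos-GAL4 pair. FBtr0307577, of the same length as FBtr0085891, had lower ratios, of -1.25, -0.76 and -1.04 in the HOW(S)-HA pairs and -1.6 in the nanos-GAL4 pair.

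**Figure D5:**
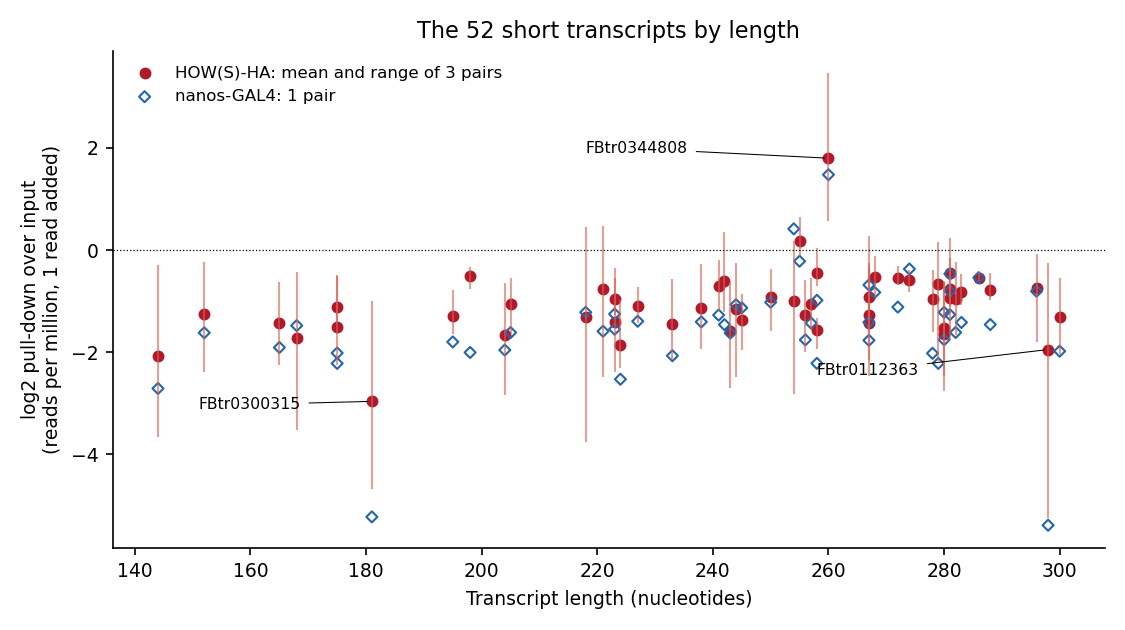
Mean log2 ratio of pull-down over input RPM over the 3 HOW(S)-HA pairs for each of the 52 short transcripts against annotated length in nt, with a vertical bar from the lowest to the highest of the 3 pairs and an open diamond for the ratio of the nanos-GAL4 pair. FBtr0344808 at 260 nt is the single member whose whole bar lies above 0, between 0.57 and 3.46.

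To test enrichment with replicates, counts scaled from TPM were fitted over all transcripts of the 6 HOW(S)-HA libraries with edgeR's quasi-likelihood F-test, with the pair as a factor and trimmed-mean (TMM) factors. In HOW(S)-HA input 2, 1 read of a member stood for between 6.81 (FBtr0300300) and 60.3 (FBtr0086355) of these scaled counts. The filter and the standard errors of members therefore rest on more counts than were sequenced. The members' median standard error was nevertheless not smaller on these counts, at 0.37 against 0.31 on estimated reads. Of 12618 transcripts tested, 49 were members. Calls were made at a log2 fold change of at least 1 in size and an adjusted p (Benjamini and Hochberg) of 0.05 or less. No member was called enriched, where 3.21% of all transcripts were, and 1 was called depleted, where 0.388% were. At that adjusted p and any fold there were 2 members, against 653 of the 12618 transcripts. The one not called was FBtr0309189, of 281 nt, with a log2 fold change of -0.77 ± 0.14 (SE, 3 pairs, edgeR adjusted p = 0.0494). Its edgeR adjusted p was 0.0887 on estimated reads. The fitted values were nevertheless mostly below 0, in 47 of 49 members against 48.3% of all transcripts tested. Their median log2 fold change was -0.88, against 0.02 over all transcripts, and 19 of 49 were at -1 or less, against 1.71%. At an unadjusted p under 0.05, 23 members were lower in the pull-down, against 12.9% of all transcripts, and 1 was higher, against 2063 of the 12618. The depleted count depended on the tool: DESeq2's Wald test on the same counts called 14 of 49 depleted, against 1.40% of all transcripts, and limma-voom 2, against 0.46%, and edgeR without TMM factors 3, against 0.182%. That last setting, which raised the median over all transcripts to 0.66, also called 2 members enriched, FBtr0344808 and FBtr0302437, against 24.2% of all transcripts. On Salmon's estimated reads, which are not scaled by effective length, 44 of 46 members tested were below 0 against 50.2% of all transcripts. Of the 46, 31 were lower at an unadjusted p under 0.05 against 13.2%, and none was called after adjustment, with a smallest adjusted p of 0.0563.

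The member called depleted was FBtr0303417, of 258 nt, which fell in the HOW(S)-HA pull-downs. It had 1.22, 1.12 and 2.26 RPM in pull-downs 1, 2 and 3 against 3.07, 4.43 and 6.15 in the inputs, with no overlap, and a log2 fold change of -1.42 ± 0.16 (SE, 3 pairs, edgeR adjusted p = 0.0221). The nanos-GAL4 testes had 1.12 RPM in the pull-down and 5.37 in the input, a log2 ratio of -2.22 that was lower than the -1.32, -1.94 and -1.43 of the HOW(S)-HA pairs. It was also the only member with a ratio of -1 or less in all 4 pairs, where 0.724% of all transcripts had one. On scaled counts, with TMM factors from the nanos-GAL4 libraries alone, its log2 difference in the nanos-GAL4 pair was -1.92. The call rested on few reads, 87.5 on average over the inputs, and 1 read stood for 14.9 scaled counts in HOW(S)-HA input 2. On estimated reads the call was lost, with a log2 fold change of -1.53 ± 0.26 (SE, 3 pairs, edgeR adjusted p = 0.0566). The call was lost too without replicate 2 (edgeR adjusted p = 0.107) or replicate 3 (0.0677), at log2 fold changes of -1.23 and -1.52. It was also lost with each of 3 wider filters on low counts, under which no transcript of the whole table was called in either direction.

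Members with larger fitted differences did not pass the edgeR test as reported, and their pairs differed more. FBtr0300315, of 181 nt, had 25.9, 3.07 and 42.2 RPM in HOW(S)-HA pull-downs 1, 2 and 3 against 242, 79.1 and 84.0 in the inputs, and 5.21 in the nanos-GAL4 pull-down against 196 in its input. Its log2 fold change was -2.84 ± 0.80 (SE, 3 pairs, edgeR adjusted p = 0.0973), with a spread of more than 10-fold among the pull-downs that was wider than that among the inputs. FBtr0086355, the shortest, had 0.488, 0.375 and 1.85 RPM in the HOW(S)-HA pull-downs against 6.64, 2.02 and 2.25 in the inputs, and 0.302 in the nanos-GAL4 pull-down against 2.21 in its input. Its log2 fold change was -2.02 ± 0.72 (SE, 3 pairs, edgeR adjusted p = 0.143), and pull-down 3 alone came close to the inputs. FBtr0306923, of 224 nt, had 51.4, 39.1 and 122 RPM in the HOW(S)-HA pull-downs against 254, 190 and 242 in the inputs, and 31.1 in the nanos-GAL4 pull-down against 180 in its input, with a log2 fold change of -1.70 ± 0.36 (SE, 3 pairs, edgeR adjusted p = 0.0627). FBtr0301941, of 168 nt, had 91.0, 137 and 302 RPM in the HOW(S)-HA pull-downs against 1041, 320 and 406 in the inputs, and 88.2 in the nanos-GAL4 pull-down against 246 in its input, with a log2 fold change of -1.51 ± 0.72 (SE, 3 pairs, edgeR adjusted p = 0.235). In each of these 4 transcripts all HOW(S)-HA pull-downs lay below all HOW(S)-HA inputs. The most abundant members had log2 fold changes of -0.54 ± 0.60 for FBtr0075116, -1.12 ± 0.54 for FBtr0084915 and -1.41 ± 0.59 for FBtr0084561 (SE, 3 pairs), with edgeR adjusted p of 0.586, 0.237 and 0.193. On estimated reads they had -0.66 ± 0.23, -1.23 ± 0.21 and -1.52 ± 0.44 in the same order (SE, 3 pairs). The edgeR adjusted p were then 0.152, 0.0563 and 0.113. DESeq2 on scaled counts called FBtr0084915 depleted (adjusted p = 5.68e-05), but not FBtr0075116 (0.128) or FBtr0084561 (0.243).

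A single member ran the other way in all 4 pairs. FBtr0344808, of 260 nt, had 16.0, 26.1 and 5.41 RPM in HOW(S)-HA pull-downs 1, 2 and 3 against 6.09, 2.33 and 3.64 in the inputs. In nanos-GAL4 testes it had 8.81 RPM in the pull-down and 3.13 in the input, so its excess in the pull-down was present without the tagged protein. Its log2 fold change in the HOW(S)-HA libraries was 1.95 ± 0.60 (SE, 3 pairs, edgeR adjusted p = 0.111), and pull-down 3 lay below input 1. FBtr0302437, of 255 nt, was the other tested member above 0, with 1.46, 2.00 and 1.75 RPM in the HOW(S)-HA pull-downs against 1.53, 1.25 and 1.75 in the inputs and a log2 fold change of 0.37 ± 0.19 (SE, 3 pairs, edgeR adjusted p = 0.252).

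The difference between HOW(S)-HA and nanos-GAL4 testes was tested as the interaction of line and pull-down over all 8 libraries, in which the single nanos-GAL4 pair adds no spread of its own. No member of 49 tested was called by edgeR, nor was any of the 12346 transcripts in the fit (0%). DESeq2 called 0 members, of 7 transcripts called among the 12346, and limma-voom called 0 members and 0 transcripts. At an unadjusted p under 0.05 there was 1 member above 0, against 1.54% of all transcripts, and none below 0, against 1.34%. That member, chosen here after its values were seen, was FBtr0086727 of 198 nt, with 2.34, 4.04 and 4.2 RPM in the HOW(S)-HA pull-downs against 3.94, 5.06 and 5.70 in the inputs, and 1.29 in the nanos-GAL4 pull-down against 5.32 in its input. Its interaction was 1.34 ± 0.28 on the log2 scale (SE, 8 libraries, edgeR adjusted p = 1.00). On balance 36 of 49 members had an interaction above 0, against 47.8% of all transcripts, with a median of 0.23, but without replicate 3 24 of 49 were below 0. The nanos-GAL4 pair itself was also taken on scaled counts, with TMM factors from its own libraries alone. There 46 of 49 members were below 0 against 49.8% of all transcripts, and 31 were at -1 or less against 3.50%, with a median of -1.19.

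Levels also differed between the lines, in single control libraries. In RPM, the nanos-GAL4 pull-down was below all 3 HOW(S)-HA pull-downs for 41 of 52 members, against 35.8% of all transcripts passing the read minimum. The nanos-GAL4 input was below all 3 HOW(S)-HA inputs for 32 of 52 members, against 24.5%, and above all of them for 5, against 30.7%. With 1 nanos-GAL4 library of each kind these differences have no replicate check, and in RNA of whole testes fewer cells of a type and less RNA per cell cannot be told apart. The ratio of pull-down to input in nanos-GAL4 testes was below all 3 HOW(S)-HA ratios for 17 of 52 members, against 35.0% of all transcripts, a share near the background.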

How the data were processed

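RNA from input lysate and anti-HA pull-down was measured by RIP-seq in 8 libraries. After rRNA depletion the authors prepared stranded libraries, sequenced single-end reads of 75 bases, trimmed them with Cutadapt 1.1, removed rRNA and tRNA reads with Subread 2.0.0 and quantified FlyBase transcripts with Salmon 0.14.2. They deposited TPM, Salmon's estimated counts of reads (not normalised, not always whole), length and effective length for each transcript. The deposited effective length is the length less 249 nt for 29746 transcripts and a smaller deduction was made for short ones, whose values rest on an assumed fragment length, as single-end reads do not measure it. A row with a gene identifier, at 0 in every library, was left out.

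Ratios used reads scaled to a library total of 1000000 (RPM) with 1 read added. The fit used scaledTPM (TPM rescaled so that a library sums to its own number of estimated reads), rounded to whole numbers, filterByExpr with the libraries as 1 group (minimum count 10, minimum total 15), TMM and the legacy quasi-likelihood F-test of edgeR 4.0.16 in R 4.3.3. Standard errors were derived from the F statistic. DESeq2 1.42.0 and limma 3.58.1 (voom) served as alternative tests. The thresholds are those of the study's methods, without their further step of leaving out transcripts that pass them in the nanos-GAL4 pair. Wilson intervals and counting limits cover counting error only. Counts called whole lay within 0.001 of a whole number.

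Each pull-down was made from the lysate of the input with its number, per the methods, so the pair was a factor. Deviations of same-numbered input and pull-down from their group means had correlations of -0.01, 0.08 and -0.01. Replicates differed beyond sampling noise (chi-square per degree of freedom 17.7 to 70.2) and none were merged.

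The members, lists and alternatives were chosen with earlier results of these data known. The rule for named transcripts took the most abundant members, the most changed with the same direction in all 3 pairs, those called, the shortest and those at the length limit. Of these a few are printed, and FBtr0086727, FBtr0302437, FBtr0306842, FBtr0307577 and FBtr0309189 were added after their values were seen. None of the 52 members was paired with a gene name in the annotation used here, so planned marker and gene lists were not applied, and no sequence is shown.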

Additional observations from a re-analysis of the deposited data

How the results depend on the processing

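The difference between short and longer transcripts stayed below 0 in every pair under the 7 alternatives tried for it. It lay between -2.25 and -1.19 in HOW(S)-HA pair 1, -1.18 and -0.61 in pair 2, -0.39 and -0.16 in pair 3 and -1.39 and -0.81 in the nanos-GAL4 pair, and each value nearest to 0 was against transcripts of up to 1000 nt. The depleted count among members, 1 in the fit as reported, was 0 with filter groups, with the member rule as the filter and with no filter, where none of 16878, 20434 and 26906 transcripts was called in either direction, against 405 enriched and 49 depleted of 12618 as reported. It was 0 on estimated reads, where 17 of 15656 transcripts were depleted, 3 when library totals replaced the TMM factors, 14 with DESeq2 and 2 with limma-voom. With library totals the median over all transcripts was 0.66 against 0.02, the median of the members was -0.22 against -0.88, 2 members were called enriched, of 3059 among 12618 transcripts, and 1 had a called interaction, of 4 among 12346, against 0 members for each as reported. FBtr0075116 then had a log2 fold change of 0.12 and FBtr0086727 one of 0.32, both above 0 and both still below the median of all transcripts. Leaving out 1 replicate at a time gave 0 to 2 depleted members, of 41, 0 and 13 depleted transcripts in all without replicates 1, 2 and 3, and medians between -1.17 (without replicate 3) and -0.57 (without replicate 1, the pair with the shallowest input). FBtr0303417 lost its call under 7 alternatives, with adjusted p between 0.0464 and 0.122 in them, and its log2 fold change stayed between -1.53 and -1.23 in all of these but library totals, where it was -0.76 (adjusted p = 0.0464). Without the replicate block 1 member was depleted and none enriched, with a median of -0.85, and over all transcripts 493 were enriched and 81 depleted. The alternatives that removed the members before scaling, used full length, kept transcripts with whole reads or matched the classes on input reads were chosen after seeing the data. Counting error weighs most on the 17 members with fewer than 100 input reads. The fitted standard errors did not follow read number, however. They ran from 0.13 to 0.73 among those tested of the 17, and from 0.19 to 0.80 among the 20 members with 1000 input reads or more.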

Other observations

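Short transcripts that missed the read minimum in the inputs numbered 95 of the 147 with 300 nt or less. Of these, 32 had no estimated read in any of the 8 libraries and 4 had a mean of at least 10 reads in the HOW(S)-HA pull-downs. FBtr0302344, of 264 nt, had the most reads of these in any pull-down. It had 58, 86 and 32 estimated reads in HOW(S)-HA pull-downs 1, 2 and 3 against 3, 13 and 11 in the inputs, and 44 in the nanos-GAL4 pull-down against 10 in its input. Every pull-down was above every input, with and without the tagged protein, although the rule on input reads favours such a pattern among the transcripts it leaves out.

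Beyond the length limit, FBtr0305053 had log2 ratios of pull-down over input RPM of 2.26, 3.96 and 1.39 in HOW(S)-HA pairs 1, 2 and 3 and 2.88 in the nanos-GAL4 pair. It and FBtr0344808, which ran the same way at 260 nt, had their highest ratio in HOW(S)-HA pair 2 and their lowest in pair 3. Both transcripts were picked after their values were seen, and no test was run on them together.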
